A study of Mus musculus with 48 samples.

Results

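The mitochondrial genome of the mouse heart was followed through its own transcripts. All genes whose name begins with mt- were taken from the tables of raw read counts, which gave 37 genes among the 31920 listed for the ventricles and the same 37 among the 31741 listed for the cell fractions. They comprise 13 messenger RNAs, 2 ribosomal RNAs and 22 transfer RNAs. The rule used gene names alone, but the set was chosen with earlier results of these data known.

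The mitochondrial chromosome is transcribed from both strands as long precursors, and the transfer RNAs that lie between most of the other genes are cut out to release the messenger and ribosomal RNAs. The messenger RNAs encode core subunits of the respiratory chain: mt-Nd1 to mt-Nd6 and mt-Nd4l belong to complex I, mt-Cytb to complex III, mt-Co1 to mt-Co3 to complex IV, and mt-Atp6 and mt-Atp8 to the ATP synthase, complex V. The remaining subunits, and the polymerase and factors that copy and transcribe mitochondrial DNA, are encoded in the nucleus. Cardiomyocytes are densely packed with mitochondria, and their mitochondrial transcripts form a large part of the RNA of the heart.

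The mice were of strain FVB, either wild type or with PLNR9C, the R9C form of phospholamban, an inhibitor of the calcium pump of the sarcoplasmic reticulum; this form causes dilated cardiomyopathy. Mice of each genotype received vehicle or JQ1, an inhibitor of BET bromodomain proteins, at 50 mg/kg. Whole left ventricles were taken at 8 weeks (labelled preDCM) and at 20 weeks (labelled DCM). The cell fractions, pooled cardiomyocytes and pooled non-myocytes, date from 16 weeks (labelled DCM). Each of the 16 combinations had 3 libraries, 48 in all. The disease stage in the labels follows age, also for wild type mice. The promoter that drives PLNR9C, how long JQ1 was given and how many animals entered a pool are not stated in the labels.

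Libraries held 16984138 to 27086694 reads in genes at 8 weeks, 18415351 to 26730918 at 20 weeks, 10249780 to 13146653 in the cardiomyocytes and 10041094 to 11815003 in the non-myocytes. In wild type vehicle libraries all 12 cardiomyocyte markers were higher in the cardiomyocytes than in the non-myocytes, and all 9 fibroblast, 8 endothelial and 8 macrophage markers were lower. None of those marker genes was at 0 in any library, so both fractions held transcripts of the other cell types.

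Part of the mitochondrial genome is also present in the nucleus. GENCODE M21, on build GRCm38, lists 7 unprocessed pseudogenes side by side on the minus strand of chr1:24611535-24616197 that match a stretch of 4649 bases of the mitochondrial chromosome, chrM:6394-11042. They include Gm28437, which matches mt-Co3 (chrM:8607-9390, plus strand) over 783 bases at 100% identity, Gm10925, which matches mt-Atp6 over 678 bases at 100%, and Gm28661, which matches mt-Co2 over 681 bases at 100%. The opening 60 bases of mt-Co3 and of its copy are shown because a read from either would be the same:

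mt-Co3: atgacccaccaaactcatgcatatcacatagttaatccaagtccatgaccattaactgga
Gm28437: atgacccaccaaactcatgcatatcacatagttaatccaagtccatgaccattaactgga

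Other nuclear pseudogenes are less alike. Gm13340 covers the whole of mt-Co1 (chrM:5328-6872, plus strand; 1545 bases) at 97.6% identity. Over the opening 60 bases, with positions counted from 1 at the start of the gene, it carries C54A and A60G, capitals marking the bases that differ from mt-Co1:

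mt-Co1: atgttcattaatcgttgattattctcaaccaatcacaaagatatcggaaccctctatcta
Gm13340: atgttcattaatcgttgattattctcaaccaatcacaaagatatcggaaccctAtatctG

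In all, 11 members lie wholly inside the copied stretch (mt-Co2, mt-Co3, mt-Atp6, mt-Atp8, mt-Nd3, mt-Nd4l and the transfer RNAs for aspartate, lysine, glycine and arginine and mt-tRNA-SerchrM-). mt-Co1 and mt-Nd4 lie partly inside it, sharing 51.1% and 62.2% of their windows of 50 bases exactly with nuclear transcripts. The other 24 members lie outside it. mt-Atp8 and the transfer RNAs inside the stretch were placed by position. The pseudogene transcripts do not cover these transfer RNAs. Of mt-Atp8, Gm10925 matches only the 43 bases that are shared with mt-Atp6.

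Of the 11 members inside the stretch, all but mt-tRNA-SerchrM- held next to no reads. Per gene length, in RPKM (reads scaled by gene length and library total, as deposited), the median over the 48 libraries was 0.666 for mt-Co3, 1.78 for mt-Co2, 4.22 for mt-Nd3, 10.4 for mt-Atp6, 11.6 for mt-Nd4l and 16.8 for mt-Atp8. The other 7 messenger RNAs had medians of 4355 RPKM (mt-Nd5), 5354 (mt-Nd4), 6579 (mt-Nd6), 9381 (mt-Nd2), 12717 (mt-Cytb), 14822 (mt-Nd1) and 40611 (mt-Co1). Every library gave these 7 between 3972 and 1809226 reads each and the 6 inside the stretch between 0 and 269. Together the 11 members held 0.0136% to 0.0632% of the mitochondrial reads of a library. mt-tRNA-SerchrM- had 20 to 1527 reads and a median of 233 RPKM. This was above several transfer RNAs outside the stretch, such as mt-tRNA-Phe (72.4) and mt-tRNA-Thr (120). Atpase6, the only gene that the tables place at the copy on chromosome 1 (chr1:24613971-24614812) had 0 to 17 reads. The labels do not state how reads that match more than 1 place were counted, and its part in these low values was not tested. The 11 members are therefore counted below but not read as levels of mt-Co2, mt-Co3, mt-Atp6, mt-Atp8, mt-Nd3 or mt-Nd4l.

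**Figure D1:**
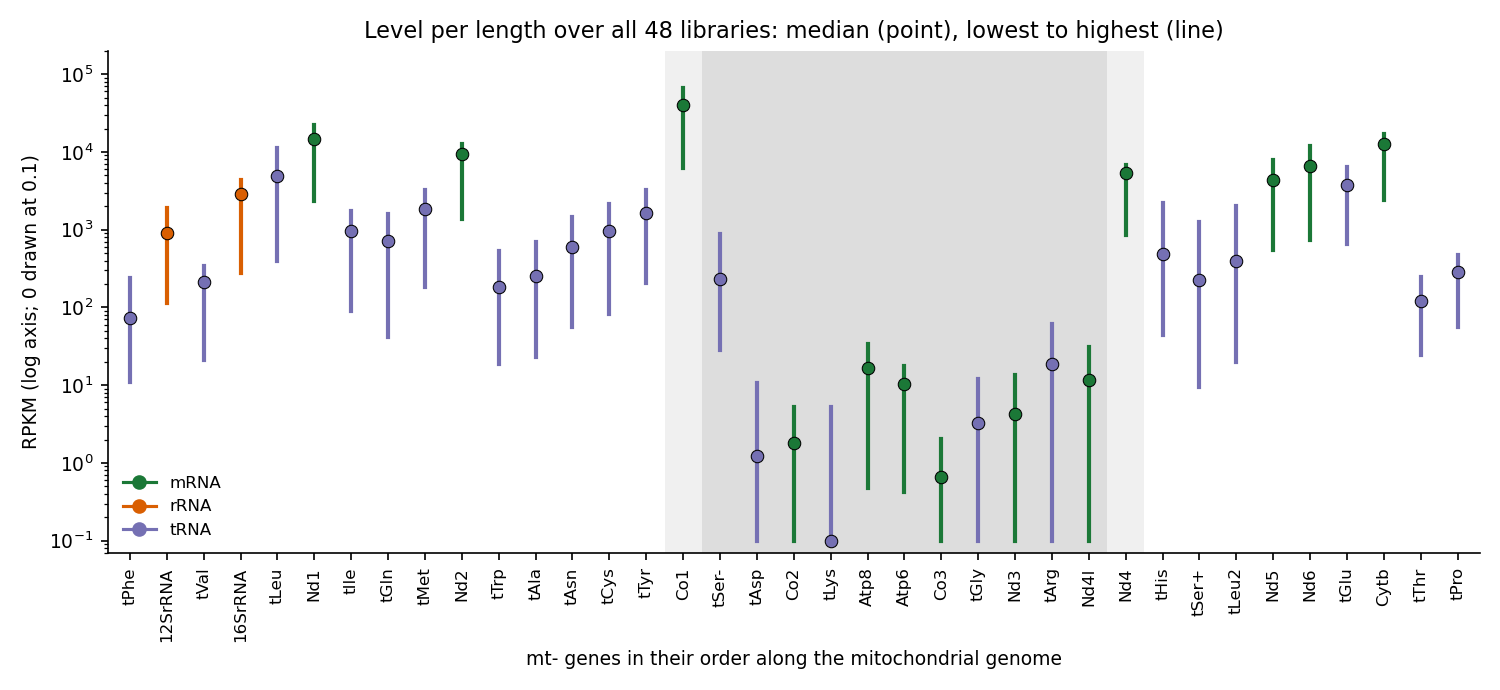
RPKM of the 37 mitochondrial genes in their order along the chromosome, on a log axis with 0 drawn at 0.1. Points are medians and lines ranges over 48 libraries; dark grey marks members wholly inside the stretch copied to chromosome 1 and light grey mt-Co1 and mt-Nd4, partly inside. The 6 messenger RNAs inside the stretch have medians of 0.666 to 16.8, the other 7 of 4355 to 40611.

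Some members also share bases with a neighbour. mt-Atp8 and mt-Atp6 overlap by 43 bases, mt-Nd4l and mt-Nd4 by 7, and mt-Nd5 and mt-Nd6, on opposite strands, by 14. The last 60 bases of mt-Atp8 show the largest of these overlaps, capitals marking the bases that are also the start of mt-Atp6:

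mt-Atp8: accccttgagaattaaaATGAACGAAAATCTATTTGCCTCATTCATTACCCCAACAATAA

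Whether counting used strand is not given. mt-Nd6 is the only messenger RNA on the minus strand, and its reads cannot be told apart from those of precursors of the plus strand. In the same way, the reads of a transfer RNA gene cannot be told apart from uncut precursor. The transfer RNAs on which the results below turn are short enough for a read to reach into a neighbour. mt-tRNA-Phe (mt-Tf) is the gene at the start of the chromosome numbering, mt-tRNA-Leu (mt-Tl1) sits between mt-16SrRNA and mt-Nd1, mt-tRNA-Gln (mt-Tq) is on the minus strand before mt-Nd2, and mt-tRNA-Leu2 (mt-Tl2) and mt-tRNA-Glu (mt-Te) flank mt-Nd5 and mt-Cytb:

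mt-Tf: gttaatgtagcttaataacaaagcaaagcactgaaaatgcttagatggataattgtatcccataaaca
mt-Tl1: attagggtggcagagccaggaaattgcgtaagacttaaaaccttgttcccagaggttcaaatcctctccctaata
mt-Tq: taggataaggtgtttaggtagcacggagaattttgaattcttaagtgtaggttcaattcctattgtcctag
mt-Tl2: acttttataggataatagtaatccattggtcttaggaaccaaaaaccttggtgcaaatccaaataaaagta
mt-Te: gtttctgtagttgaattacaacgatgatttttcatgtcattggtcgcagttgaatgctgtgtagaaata

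Their RPKM medians differed widely, at 4949 for mt-tRNA-Leu, 3771 for mt-tRNA-Glu, 711.6 for mt-tRNA-Gln, 390.6 for mt-tRNA-Leu2 and 72.4 for mt-tRNA-Phe. The ribosomal RNAs stood at 913 (mt-12SrRNA) and 2880 (mt-16SrRNA) RPKM, below all 7 well-read messenger RNAs. The labels name no selection or depletion step, and any part of library preparation in these ribosomal RNA values was not tested. By class, messenger RNA made up 93.0% to 96.6% of the mitochondrial reads of a library, ribosomal RNA 2.60% to 5.63% and transfer RNA 0.703% to 1.66%. The 6 messenger RNAs inside the copied stretch enter these shares with 0 to 269 reads each. How reads from the shared parts of mt-Co1 and mt-Nd4 were counted is not stated either. The shares here and below therefore describe reads as counted, not the full make-up of mitochondrial RNA. The sequences are those of GENCODE M21 transcripts.

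Mitochondrial transcripts, as counted, took between 1.93% and 18.2% of all reads in genes. Members inside the copied stretch added next to nothing to this share. In ventricles at 8 weeks the share was 16.5%, 14.8% and 14.7% in wild type vehicle libraries and 14.2%, 13.6% and 13.7% in PLNR9C vehicle libraries. The groups did not overlap, with means of 15.3% ± 1.02 and 13.8% ± 0.316 (SD, n = 3). At 20 weeks wild type vehicle libraries had 13.8%, 14.3% and 14.2% and PLNR9C vehicle libraries 7.71%, 9.55% and 8.45%, again without overlap and with a ratio of means of 0.607. The difference of the means, PLNR9C minus wild type, was -1.52 percentage points at 8 weeks and -5.55 at 20 weeks. Without wild type vehicle replicate 1, which had the highest share of its group, the difference at 8 weeks was -0.93.

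In the cardiomyocytes the share was 13.7%, 13.2% and 14.1% in wild type vehicle pools and 11.6%, 8.998% and 9.35% in PLNR9C vehicle pools, a ratio of means of 0.729. In the non-myocytes it was 3.71%, 3.91% and 3.91% in wild type vehicle pools and 2.16%, 1.99% and 1.93% in PLNR9C vehicle pools, a ratio of 0.528. Neither pair of groups overlapped. A summed share was given no test, since its members were chosen with earlier results known.

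With JQ1 the ventricles and the fractions differed in whether the groups separated. At 20 weeks PLNR9C libraries had 9.06%, 8.03% and 10.1% with JQ1, which overlapped vehicle, and at 8 weeks 15.2%, 13.8% and 15.6%, which overlapped vehicle as well. PLNR9C cardiomyocytes had 13.5%, 14.0% and 14.8% with JQ1, all above the 3 vehicle pools and overlapping the range of wild type vehicle pools. PLNR9C non-myocytes had 3.31%, 8.63% and 5.35%, all above vehicle and wide apart from each other. The difference of the means in this fraction was 3.73 percentage points, and 2.3 without JQ1 replicate 2.

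Wild type mice showed the same order. JQ1 libraries overlapped vehicle in ventricles, at 15.2% to 15.3% at 8 weeks and 13.6% to 15.3% at 20 weeks. Wild type cardiomyocytes had 14.96%, 15.4% and 18.2% with JQ1 and wild type non-myocytes 7.17%, 8.23% and 11.3%, in each fraction above all vehicle pools. The difference of the means in the cardiomyocytes was 2.49 percentage points, and 1.49 without JQ1 replicate 3. Under JQ1, PLNR9C libraries remained below wild type at 20 weeks (means of 9.07% and 14.6%) and in the cardiomyocytes (14.1% and 16.2%), and the genotypes overlapped at 8 weeks and in the non-myocytes.

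**Figure D2:**
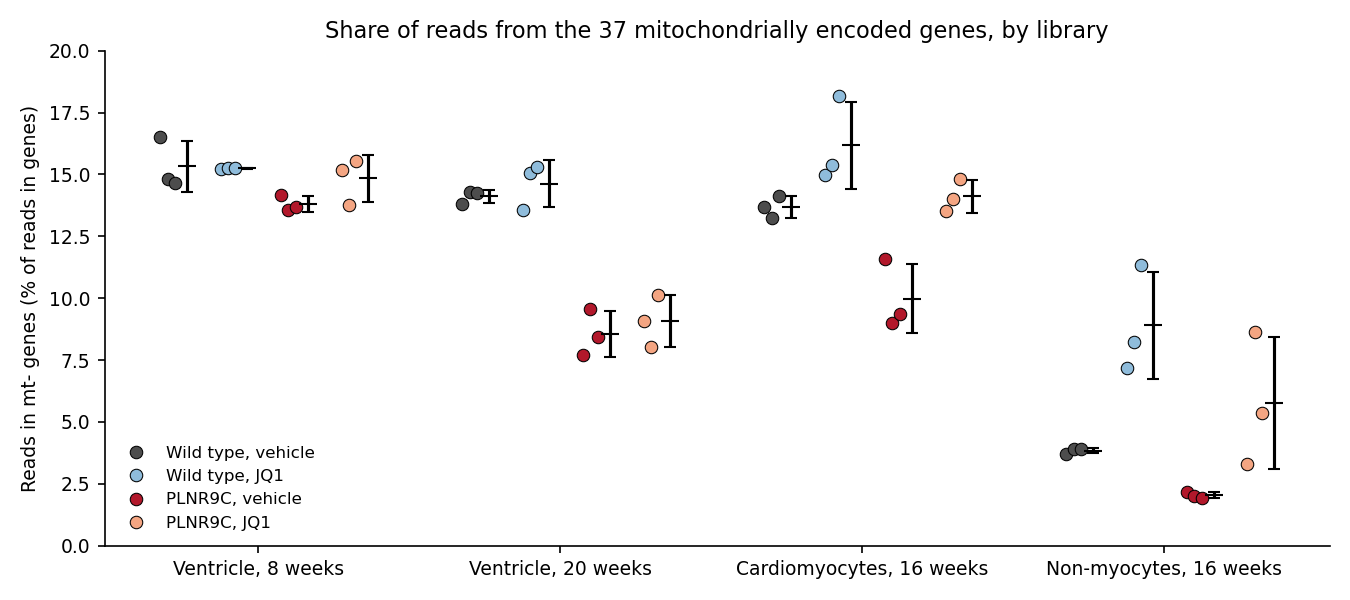
Share of all reads in genes that came from the 37 mitochondrial genes, in percent, for each of 48 libraries by genotype, treatment and source; black bars are the mean ± SD of 3 libraries. PLNR9C vehicle libraries lie below wild type vehicle libraries in all 4 sources, and JQ1 libraries lie above vehicle in both cell fractions.

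The genotype comparison was then taken gene by gene. Levels are reads scaled to library size with trimmed-mean factors (CPM), changes are log2 fold changes with their standard error (SE), and a gene was called where its p in edgeR's quasi-likelihood test, adjusted over all genes tested, was under 0.05. At 20 weeks 30 of the 36 members tested fell in PLNR9C vehicle ventricles and none rose; over all genes 44.7% were called and 21.4% were called lower. In 31 of the 36 every PLNR9C library was below every wild type library, which held for 25.8% of all genes. The median change of the members was -1.30, against 0.01 over all genes tested. Called were 22 of the 26 members not wholly inside the copied stretch and 8 of the 10 tested inside it.

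The ribosomal RNAs, which form the small and large subunits of the mitochondrial ribosome, fell most among the long transcripts. mt-16SrRNA stood at 5955, 5268 and 4763 CPM in wild type libraries and 1829, 2144 and 2157 CPM in PLNR9C libraries, a change of -1.38 (SE 0.11, adjusted p = 1.76e-08). mt-12SrRNA stood at 982, 624 and 937 CPM in wild type and 250, 341 and 293 CPM in PLNR9C, a change of -1.53 (SE 0.19, adjusted p = 6.79e-05). The groups did not overlap for either gene.

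The 7 well-read messenger RNAs fell by 0.83 to 1.20 on the log2 scale. mt-Nd1, a complex I subunit, fell by 0.98 (adjusted p = 3.21e-06), from 15213, 14248 and 15168 CPM in wild type to 6538, 8393 and 7769 CPM in PLNR9C. mt-Cytb, the catalytic cytochrome b of complex III, had 15685, 14613 and 15314 CPM in wild type and 7452, 10064 and 8207 CPM in PLNR9C, a change of -0.83 (SE 0.11, adjusted p = 8.48e-06). mt-Nd6 had 5653, 5383 and 5822 CPM in wild type and 2642, 3487 and 3047 CPM in PLNR9C, a change of -0.88 (SE 0.24, adjusted p = 0.0155). All 7 had every PLNR9C library below every wild type library.

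Transfer RNAs outside the copied stretch fell in 13 of 17 cases. mt-tRNA-Phe had 5.19, 5.24 and 3.80 CPM in wild type and 1.21, 1.24 and 1.80 CPM in PLNR9C, a change of -1.76 (SE 0.22, adjusted p = 3.78e-06). mt-tRNA-Gln had 111, 94.2 and 97.4 CPM in wild type and 27.5, 31.8 and 34.9 CPM in PLNR9C, a change of -1.69 (adjusted p = 6.52e-06). mt-tRNA-Leu had 652, 896 and 655 CPM in wild type and 229, 268 and 293 CPM in PLNR9C, a change of -1.48. The 4 not called were mt-tRNA-His (-1.04, adjusted p = 0.134), mt-tRNA-SerchrM+ (-0.90), mt-tRNA-Leu2 (-0.97) and mt-tRNA-Pro (-0.85).

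The classes differed in the size of the change. The ratio of the PLNR9C to the wild type share of all reads was 0.616 for messenger RNA, 0.453 for ribosomal RNA and 0.483 for transfer RNA. Within the mitochondrial reads, ribosomal RNA took 4.12% in wild type and 3.08% in PLNR9C, and transfer RNA 1.59% and 1.27%, neither with overlap. Along the chromosome, each transfer and ribosomal RNA that lies before mt-Co1, from mt-tRNA-Phe to mt-tRNA-Tyr, fell by 1.29 to 1.76 on the log2 scale. Of the 6 transfer RNAs that lie after the copied stretch, mt-tRNA-Thr had a change of -1.31 and the other 5 of -1.07 (mt-tRNA-Glu) to -0.85.

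At 8 weeks the same comparison called fewer members. Of 35 tested, 7 fell and none rose, while over all genes 14.4% were called and 6.5% were called lower. The libraries of 21 of the 35 did not overlap, lower in PLNR9C, against 15.9% of all genes. They were mt-16SrRNA (-0.46, adjusted p = 0.0213), mt-Co1 (-0.31, adjusted p = 0.00517), mt-Nd1 (-0.30, adjusted p = 0.00516), mt-Nd2 (-0.31, adjusted p = 0.0298) and the transfer RNAs for leucine (-0.48, adjusted p = 0.00237), tryptophan (-0.45, adjusted p = 0.0162) and methionine (-0.36, adjusted p = 0.0291). mt-tRNA-Leu had 616, 645 and 560 CPM in wild type and 443, 443 and 421 CPM in PLNR9C, and mt-Co1 had 76517, 67731 and 67325 CPM in wild type and 58303, 55424 and 56940 CPM in PLNR9C. Neither pair of groups overlapped. Leaving out PLNR9C vehicle replicate 2 or wild type vehicle replicate 1 left 3 called, and leaving out wild type vehicle replicate 2 left 4.

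The difference between the ages was tested itself. The genotype effect was lower at 20 weeks than at 8 weeks for 22 of 36 members and higher for none, with 15.5% of all genes called in that comparison and 8.51% called lower. mt-12SrRNA differed by -1.06 (adjusted p = 0.0162), mt-16SrRNA by -0.91 (adjusted p = 0.000672) and mt-Co1 by -0.64 (adjusted p = 0.000353). Of the 7 well-read messenger RNAs only mt-Nd6 was not called (-0.80, adjusted p = 0.0873). Age and experiment changed together, so the 2 cannot be told apart.

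In the cardiomyocyte pools 29 of 34 members fell in PLNR9C and none rose, against 26.1% of all genes called and 11.8% called lower. The pools of 30 did not overlap, against 23.1% of all genes. The 7 well-read messenger RNAs fell by 0.51 (mt-Co1, adjusted p = 0.0497) to 0.78 (mt-Nd2, adjusted p = 0.000965) on the log2 scale. mt-Nd2, of complex I, had 11633, 11067 and 11154 CPM in wild type and 6764, 5992 and 6943 CPM in PLNR9C, without overlap. mt-12SrRNA had 1683, 1502 and 1705 CPM in wild type and 579, 647 and 876 CPM in PLNR9C, a change of -1.22 (adjusted p = 0.000378), and mt-16SrRNA had a change of -1.14 (adjusted p = 0.00432). mt-tRNA-Phe fell by 1.65 (adjusted p = 3.12e-05) and 15 of 17 transfer RNAs outside the copied stretch were called. Ribosomal RNA took 5.54% of the mitochondrial reads in wild type and 3.72% in PLNR9C, and transfer RNA 1.03% and 0.755%, both without overlap.

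In the non-myocyte pools 14 of 31 members fell and none rose, against 18.6% of all genes called and 8.32% called lower. Although fewer passed the test, 30 of the 31 had every PLNR9C pool below every wild type pool, which held for 18.2% of all genes. mt-16SrRNA had 1164, 1048 and 894 CPM in wild type and 566, 417 and 555 CPM in PLNR9C, a change of -1.01 (adjusted p = 0.00716). mt-Nd5 (-0.97, adjusted p = 0.0305) and mt-Nd2 (-0.96, adjusted p = 0.0416) were the only messenger RNAs called, and mt-Co1 missed the threshold (-0.96, adjusted p = 0.0555) with no overlap between its groups. mt-tRNA-Gln (-2.18, adjusted p = 0.0115) and mt-tRNA-Leu (-1.61, adjusted p = 0.0115) fell most clearly among the transfer RNAs. Leaving out 1 library of the 2 groups left 9 called without wild type replicate 1, 6 without wild type replicate 2, 5 without PLNR9C replicate 1 and 7 without any of the other 3, and without the filter on low counts 8 were called. The genotype effect in cardiomyocytes differed from that in non-myocytes for 0 of 34 members by edgeR and by DESeq2, with 1 at an unadjusted p under 0.05 and 8.33% of all genes called.

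**Figure D3:**
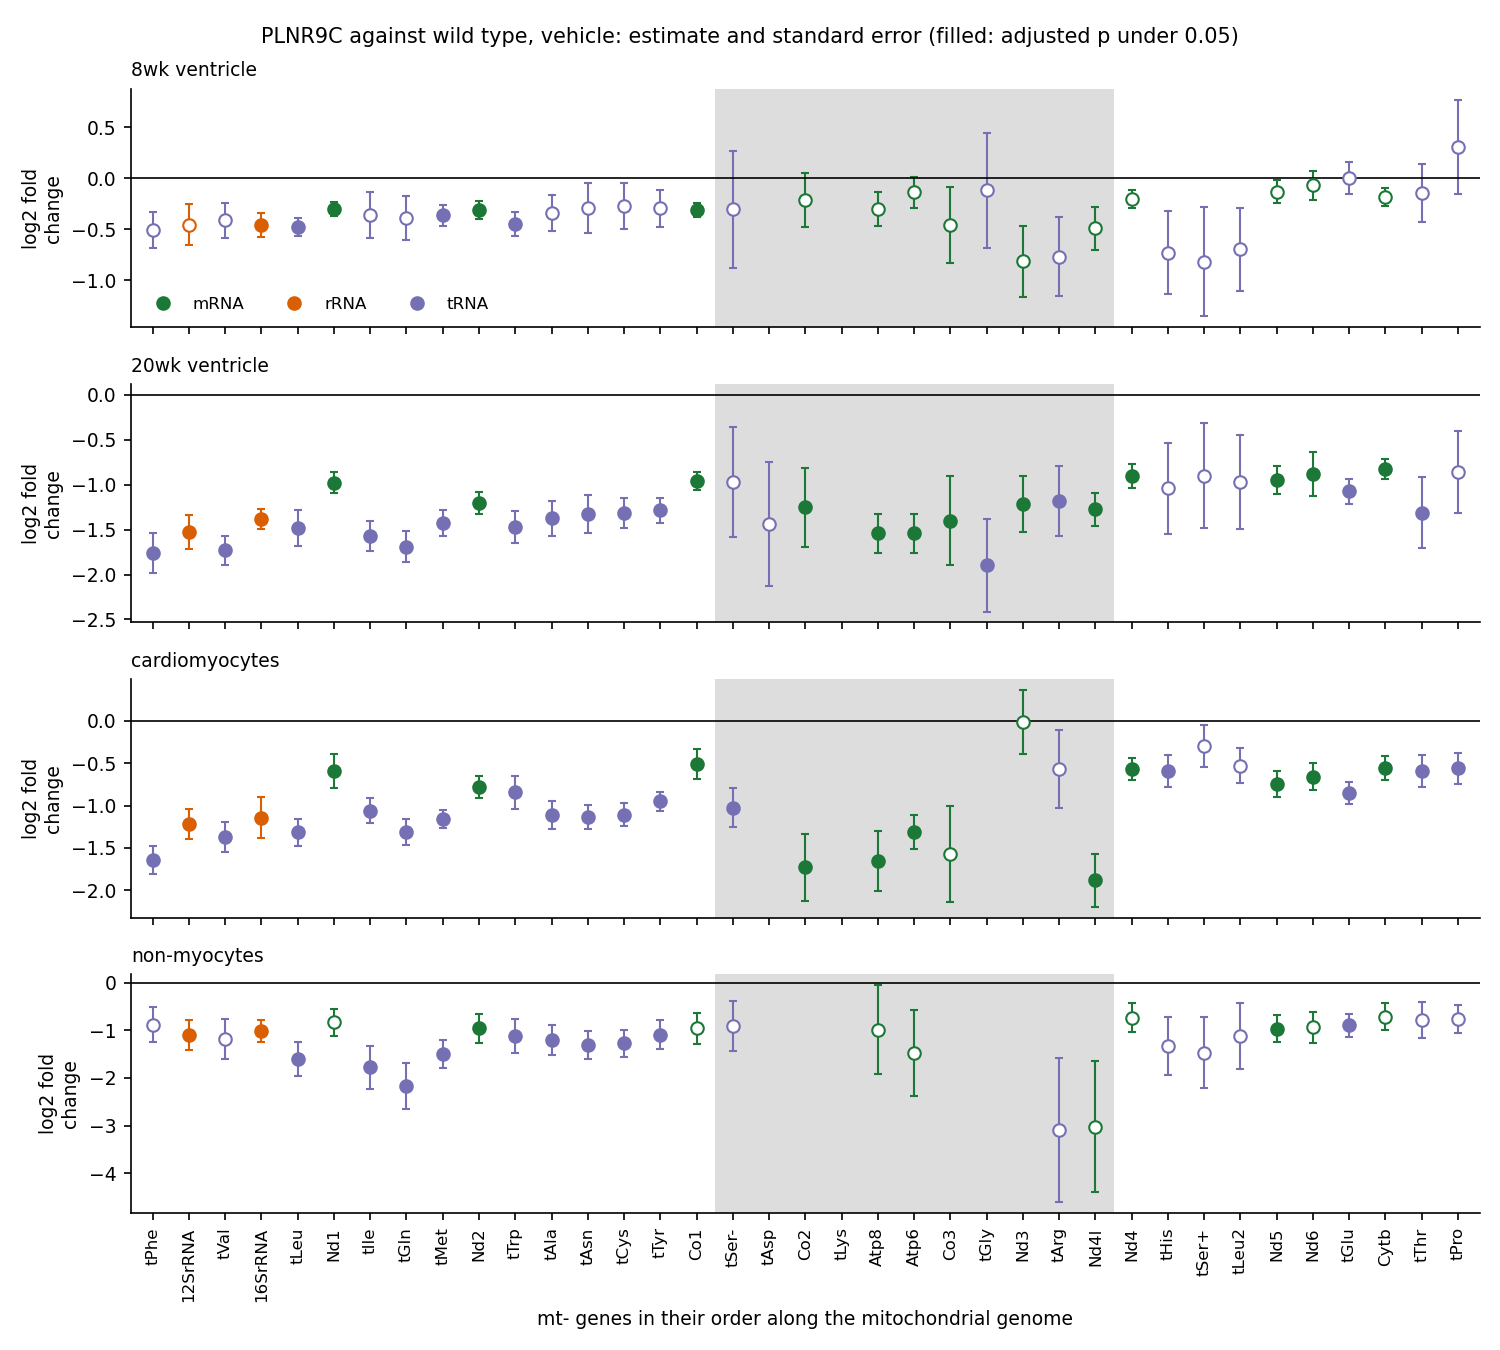
Log2 fold change ± SE of PLNR9C against wild type, both with vehicle, for each member tested, in chromosome order. The 4 panels are the sources, filled points have an adjusted p under 0.05, and a grey background marks members wholly inside the copied stretch. At 20 weeks and in cardiomyocytes the ribosomal RNAs (-1.53 to -1.14) lie below the 7 well-read messenger RNAs (-1.20 to -0.51) of the same panel.

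Cardiomyocyte markers moved with these members. In PLNR9C vehicle ventricles at 20 weeks 11 of 12 cardiomyocyte markers were called lower. Their summed level was 40349 to 46980 CPM against 79474 to 91376 in wild type. In the same ventricles 8 of 9 fibroblast and 8 of 8 macrophage markers were called higher and 6 of 8 endothelial markers lower. Of 7 mural markers 3 were called higher and 2 lower. The summed mitochondrial CPM per cardiomyocyte marker CPM was 1.63 to 1.88 in wild type and 1.65 to 1.84 in PLNR9C, which overlapped. At 8 weeks 9 of 12 cardiomyocyte markers were called lower, and 6 of 9 fibroblast and 8 of 8 macrophage markers higher. No endothelial marker was called, and 1 of 7 mural markers was called lower. The ratio at 8 weeks was 1.85 to 2.07 in wild type and 1.89 to 2.09 in PLNR9C. In the cardiomyocyte pools 5 of 12 cardiomyocyte markers were called lower and 7 of 9 fibroblast and 6 of 8 macrophage markers higher, with ratios of 1.49 to 1.52 and 1.29 to 1.73. In the non-myocytes 1 of 12 cardiomyocyte markers was called lower, at 2968 to 4494 CPM in wild type and 1685 to 2334 CPM in PLNR9C. This count was near the 8.32% of all genes called lower in that fraction. Markers of the other cell types also moved there: 7 of 8 endothelial and 5 of 7 mural markers were called lower, and 6 of 9 fibroblast and 7 of 8 macrophage markers higher. No defining cardiomyocyte marker was at 0. Fewer cardiomyocytes and less mitochondrial RNA per cardiomyocyte cannot be told apart in such libraries, and the part of the cell mixture in the genotype effect was not tested.

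JQ1 was compared with vehicle within each genotype. In PLNR9C mice this shares the vehicle libraries with the genotype comparison, so opposite signs in the 2 comparisons are not independent of each other. At 20 weeks 4 of 36 members rose in PLNR9C ventricles and none fell, against 31.9% of all genes called and 15.9% called higher. The members called higher were thus a smaller part than among all genes. mt-16SrRNA had 1829, 2144 and 2157 CPM with vehicle and 2686, 2549 and 3415 CPM with JQ1, which did not overlap, a change of 0.50 (SE 0.11, adjusted p = 0.00206). mt-Co1, the catalytic subunit of complex IV, rose by 0.26 (SE 0.10, adjusted p = 0.049), from 32784, 41602 and 36620 CPM to 44857, 39617 and 48605 CPM, with overlap. mt-tRNA-Ile (0.62, adjusted p = 0.014) and mt-tRNA-Gln (0.48, adjusted p = 0.0499) were the other members called.

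The other 6 well-read messenger RNAs were not called. mt-Cytb had 7452, 10064 and 8207 CPM with vehicle and 8527, 7443 and 9872 CPM with JQ1, a difference of 0.01 on the log2 scale. mt-Nd6 had 2642, 3487 and 3047 CPM with vehicle and 2829, 1773 and 2816 CPM with JQ1, a difference of -0.31. Ribosomal RNA was 0.263% of all reads with vehicle and 0.354% with JQ1, without overlap, and 3.08% and 3.89% of mitochondrial reads. mt-12SrRNA missed the threshold (0.49, adjusted p = 0.071). The count of 4 fell to 1 without PLNR9C vehicle replicate 1, and to 2 without vehicle replicate 3, without JQ1 replicate 3 or with relative log expression scaling.

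The proportions of the messenger RNAs were compared as well. They are parts of the reads as counted, to which the messenger RNAs inside the copied stretch gave next to none. mt-Co1 took 50.8% of the mitochondrial messenger RNA reads in PLNR9C vehicle ventricles at 20 weeks and 55.4% with JQ1, while mt-Nd5 took 9.06% and 7.25%, mt-Nd6 4.19% and 3.05%, mt-Nd4 6.38% and 5.59%, and mt-Cytb 11.7% and 10.7%. None of these pairs of groups overlapped. mt-Co1 was also the larger part with JQ1 at 8 weeks (46.7% and 48.1%), in PLNR9C cardiomyocytes (52.4% and 56.1%) and in PLNR9C non-myocytes (51.1% and 53.0%), and mt-Cytb the smaller part in all 3 (12.1% and 11.3%, 13.7% and 12.5%, 14.7% and 13.3%), without overlap. In wild type mice the JQ1 and vehicle groups overlapped for mt-Co1 in all 4 sources. Its mean there was higher with JQ1 at both ages and in the cardiomyocytes. At 20 weeks wild type libraries had 50.1%, 52.3% and 49.9% with vehicle and 55.5%, 50.6% and 51.5% with JQ1. Wild type cardiomyocytes had 49.95%, 51.3% and 49.8% with vehicle and 49.1%, 51.9% and 59.2% with JQ1. In the wild type non-myocytes the mean was 53.3% with vehicle and 53.0% with JQ1. For mt-Cytb wild type libraries at 8 weeks had 11.4% with vehicle and 10.9% to 11.2% with JQ1, without overlap. In the other wild type sources the mt-Cytb groups overlapped. A difference between genotypes in these parts was not tested. These shares sum to a fixed total, so a larger part for 1 means a smaller part for others.

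At 8 weeks 4 of 35 members rose with JQ1 in PLNR9C ventricles and none fell, against 33.1% of all genes called and 15.5% called higher. This too was a smaller part than among all genes. The 4 members were mt-16SrRNA (0.42, adjusted p = 0.018), mt-tRNA-Leu (0.32, adjusted p = 0.015), mt-Nd1 (0.19, adjusted p = 0.0381) and mt-Co1 (0.24, adjusted p = 0.0123). The count depended on single libraries. mt-16SrRNA had 6216, 4652 and 7031 CPM in JQ1 replicates 1, 2 and 3, against 4469, 4164 and 4789 CPM with vehicle. Without JQ1 replicate 2, 17 members were called, and without JQ1 replicate 1 or 3 only 1 was, or 2 without vehicle replicate 2 or 3. In the same PLNR9C comparison 6 of 12 cardiomyocyte markers were called higher, and their part was not tested. In wild type ventricles JQ1 called none of the members at either age by edgeR or DESeq2, where 29.8% of all genes were called at 8 weeks and 27.2% at 20 weeks. At an unadjusted p under 0.05 stood 1 member at 8 weeks and 0 at 20 weeks.

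In PLNR9C cardiomyocytes 12 of 34 members rose with JQ1 and none fell, where 10.5% of all genes were called and 6.14% were called higher. The JQ1 pools of 18 members were all above vehicle, against 12.9% of all genes. mt-Co1 had 50900, 40945 and 47364 CPM with vehicle and 72243, 64505 and 76917 CPM with JQ1, a change of 0.62 (SE 0.18, adjusted p = 0.0431). mt-Nd2 had 6764, 5992 and 6943 CPM with vehicle and 9675, 8307 and 8955 CPM with JQ1, a change of 0.45 (SE 0.13, adjusted p = 0.043), and mt-Nd4 changed by 0.43 (adjusted p = 0.0466). Neither mt-Co1 nor mt-Nd2 overlapped between the groups.

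mt-16SrRNA had 3986, 1911 and 2452 CPM with vehicle and 4512, 4802 and 5975 CPM with JQ1, a change of 0.87 (SE 0.24, adjusted p = 0.0378) without overlap. mt-tRNA-Leu rose from 177, 142 and 166 CPM to 256, 278 and 365 CPM (0.89, adjusted p = 0.00608), and the transfer RNAs for glutamine (0.85, adjusted p = 0.00601), isoleucine (0.74, adjusted p = 0.00941), methionine (0.55, adjusted p = 0.0081) and tyrosine (0.39) rose as well. The other 3 members called, mt-Atp8, mt-Atp6 and mt-Nd4l, lie inside the copied stretch. mt-Nd1 (0.50, adjusted p = 0.132), mt-Cytb (0.38, adjusted p = 0.095), mt-12SrRNA (0.40, adjusted p = 0.159) and mt-Nd6 (0.13) were not called.

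The count of 12 fell to 5 without JQ1 replicate 3 or without vehicle replicate 2, and to 7 without vehicle replicate 3, with no filter on low counts or with the replicate number as a block. None of the 12 cardiomyocyte, 9 fibroblast or 8 macrophage markers was called in this comparison, and 2 of 8 endothelial, 1 of 7 mural and the 1 lymphocyte marker tested were called higher. The median difference of the fibroblast markers was 0.87, with summed levels of 1108 to 1747 CPM with vehicle and 1237, 4200 and 2356 CPM with JQ1. Their part in the result was not tested. Summed cardiomyocyte markers were 48109 to 80017 CPM with JQ1 and 58176 to 65795 CPM with vehicle, and mitochondrial CPM per marker CPM was 1.70 to 2.51 and 1.29 to 1.73. In wild type cardiomyocytes none of 34 members was called with JQ1 by edgeR and 2 by DESeq2, with 6 at an unadjusted p under 0.05 and 3.63% of all genes called. The 7 well-read messenger RNAs there had changes of 0.23 to 0.47, each with all 3 JQ1 pools above all 3 vehicle pools, and 16.9% of all genes had their libraries apart in that direction. Ribosomal RNA was a smaller part of the mitochondrial reads with JQ1 in wild type cardiomyocytes, 4.13% against 5.54%, without overlap.

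JQ1 called most members in the non-myocytes. In PLNR9C pools 30 of 31 members rose, where 36.2% of all genes were called and 16.7% were called higher. The pools of 28 did not overlap, against 23.2% of all genes. mt-Co1 had 9989, 9203 and 9181 CPM with vehicle and 16510, 49234 and 29319 CPM with JQ1, a change of 1.74 (SE 0.33, adjusted p = 0.00115) without overlap. The 7 well-read messenger RNAs changed by 1.52 to 1.74, and mt-16SrRNA had 566, 417 and 555 CPM with vehicle and 1032, 2008 and 1235 CPM with JQ1 (1.47, adjusted p = 0.000299). mt-tRNA-Leu rose by 2.27 (adjusted p = 0.000917) and mt-tRNA-Gln by 2.47, and only mt-tRNA-Trp was not called (0.94, adjusted p = 0.0626).

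In wild type non-myocytes 27 of 31 members rose with JQ1 and none fell, where 38% of all genes were called and 18% were called higher. mt-Co1 had 17690, 18082 and 19238 CPM with vehicle and 36888, 42681 and 65918 CPM with JQ1 (1.40, adjusted p = 0.00426). mt-16SrRNA had 1164, 1048 and 894 CPM with vehicle and 2851, 2928 and 3795 CPM with JQ1 (1.62, adjusted p = 0.000145). Every member tested had its JQ1 pools above its vehicle pools, against 24% of all genes apart in that direction.

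Cardiomyocyte markers of this fraction were compared as well. In wild type pools 10 of 12 rose with JQ1, from 2968 to 4494 CPM in sum with vehicle to 7305 to 9650 CPM, and the mitochondrial CPM per marker CPM was 8.14 to 12.3 with vehicle and 8.66 to 13.0 with JQ1. In these pools 5 of 8 macrophage markers were also called lower and both red cell markers tested higher. Red cell markers summed to 46.3, 383 and 1381 CPM in JQ1 replicates 1, 2 and 3, whose mitochondrial sums were 75671, 85919 and 125092 CPM, against 10.1 to 77.2 CPM with vehicle. In PLNR9C pools 0 of 12 were called, and the sums with JQ1 were 3698, 1200 and 1448 CPM in replicates 1, 2 and 3, against 1685 to 2334 CPM with vehicle. The test of the difference between genotypes called 0 of the 12. Replicates 2 and 3, with the lowest marker sums of the 12 non-myocyte pools, had mitochondrial sums of 94681 and 57429 CPM, or 78.9 and 39.7 per marker CPM. Replicate 1 had 33111 CPM, or 8.95 per marker CPM, within the range of the other groups. The 3 PLNR9C vehicle pools had mitochondrial sums of 18738 to 20328 CPM and ratios of 8.03 to 12.1. In replicates 2 and 3 of JQ1 the mitochondrial level was higher at a cardiomyocyte marker level below that of vehicle. In an alternative added after seeing the data, with both of these pools left out, 14 members rose in place of 30, and mt-16SrRNA (1.02) and mt-Nd2 (0.85) were among them, while mt-Co1 (0.82), mt-Cytb (0.72) and mt-12SrRNA (1.03) did not pass the threshold. The lone JQ1 pool was then assumed to vary like the other groups, and its share of 3.31% was 1.28 percentage points above the vehicle mean. The part of the markers was not tested in either genotype.

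**Figure D4:**
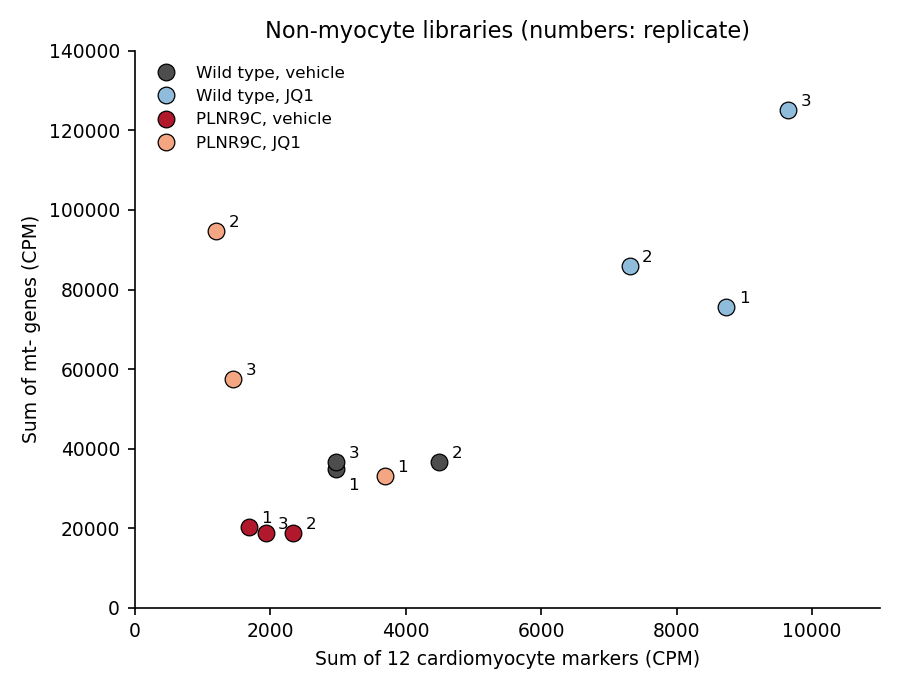
Summed CPM of the mitochondrial genes (y) against summed CPM of 12 cardiomyocyte markers (x) in the 12 non-myocyte pools, labelled by replicate number. PLNR9C JQ1 replicates 2 and 3 stand apart at 1200 and 1448 marker CPM and 94681 and 57429 mitochondrial CPM; wild type JQ1 pools are high on both axes.

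Tests of the differences between JQ1 effects gave few calls. The JQ1 effect did not pass the threshold for a difference between genotypes for any member in any of the 4 sources, by edgeR or by DESeq2, where 0.00645%, 0.357%, 0% and 0% of all genes were called at 8 weeks, 20 weeks, and for the myocyte and non-myocyte fractions, in this order. At an unadjusted p under 0.05 stood 2, 2, 6 and 0 members. In PLNR9C mice the JQ1 effect was lower in cardiomyocytes than in non-myocytes for 6 of 34 members, where 2.43% of all genes were called and 0.638% were called lower. They were mt-Nd6 (-1.47, adjusted p = 0.0389) and the transfer RNAs for methionine, histidine, glutamate and proline and mt-tRNA-SerchrM+. DESeq2 called 19. With JQ1 non-myocyte replicates 2 and 3 both left out, 0 were called and mt-Nd6 differed by -0.50. In edgeR with 1 library left out, the count was 21 without JQ1 non-myocyte replicate 1, 15 without JQ1 cardiomyocyte replicate 1, 0 without vehicle non-myocyte replicate 2 or 3, and 1 or 2 without JQ1 non-myocyte replicate 2 or 3, vehicle non-myocyte replicate 1, JQ1 cardiomyocyte replicate 2 or 3, or vehicle cardiomyocyte replicate 2 or 3.

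In wild type vehicle pools all 34 members tested were higher in cardiomyocytes than in non-myocytes, where 79.5% of all genes were called and 37.3% were called higher. The median difference was 2.88 on the log2 scale, against -0.13 over all genes. mt-12SrRNA differed by 3.63, mt-16SrRNA by 3.41 and the 7 well-read messenger RNAs by 2.69 to 3.12.

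Respiratory complexes need subunits from both genomes, so the nuclear subunits were set beside the mitochondrial members. Of the 26 members not wholly inside the copied stretch, 7 are messenger RNAs for subunits, 2 are ribosomal RNAs and 17 are transfer RNAs. Of 77 nuclear genes for subunits and the inhibitor Atpif1, all tested, 76 fell and 1 rose in PLNR9C ventricles at 20 weeks, with a median change of -0.80, where 21.4% of all genes were called lower. Sdha, the flavoprotein of complex II, which has no mitochondrially encoded subunit, fell by 1.13 (SE 0.07, adjusted p = 1.13e-09). Ndufs1 of complex I fell by 1.01 (adjusted p = 3.34e-09), Uqcrc1 of complex III by 1.02 and Atp5f1 of complex V by 0.89. At 8 weeks 38 fell and 1 rose, in cardiomyocytes 19 fell and 1 rose, and in non-myocytes 2 fell and 1 rose. Of all genes 6.5%, 11.8% and 8.32% were called lower in these comparisons, so the count in non-myocytes was below the background. The gene that rose was the same in all 4 sources: Atpif1, which blocks the ATP synthase when it runs in reverse. It rose by 0.47 at 8 weeks, by 0.79 at 20 weeks (adjusted p = 4.18e-06), by 1.12 in cardiomyocytes (adjusted p = 0.000496) and by 0.59 in non-myocytes. Of these 26 mitochondrial members 22 fell at 20 weeks, among them all 7 messenger RNAs. Transcripts for subunits from both genomes were thus lower in PLNR9C ventricles. In the same comparison 11 of 12 cardiomyocyte markers were called lower, with a median change of -1.10. The part of the cell mixture in the nuclear falls was not tested.

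With JQ1 the 2 genomes differed in what was called. In PLNR9C ventricles at 20 weeks 64 of 77 nuclear genes rose and none fell (median 0.35), against 4 of the 26 mitochondrial members. Only mt-Co1 among those 4 is a messenger RNA, and their count was near the 15.9% of all genes called higher. Atp5g3 rose by 0.56 (adjusted p = 0.000102), Ndufv3 by 0.54 (adjusted p = 0.000173) and Cox5a by 0.49. In the same ventricles 9 of 12 cardiomyocyte markers rose, and mitochondrial CPM per marker CPM was 1.37 to 1.60 with JQ1 and 1.65 to 1.84 with vehicle. In PLNR9C cardiomyocytes the order was the other way round: 0 of 77 nuclear genes were called (median -0.13) and 9 of the 26 mitochondrial members rose. Of those 9 members mt-Co1, mt-Nd2 and mt-Nd4 are messenger RNAs, and 6.14% of all genes were called higher. In non-myocytes JQ1 raised 70 of 77 nuclear genes in wild type pools (median 0.78) and 4 of 77 in PLNR9C pools (median 0.16). Beside them 24 and 25 of the 26 mitochondrial members rose. Of all genes 18% and 16.7% were called higher in these comparisons, so the 4 of 77 was below the background. These differences between genomes were given no test of their own.

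**Figure D5:**
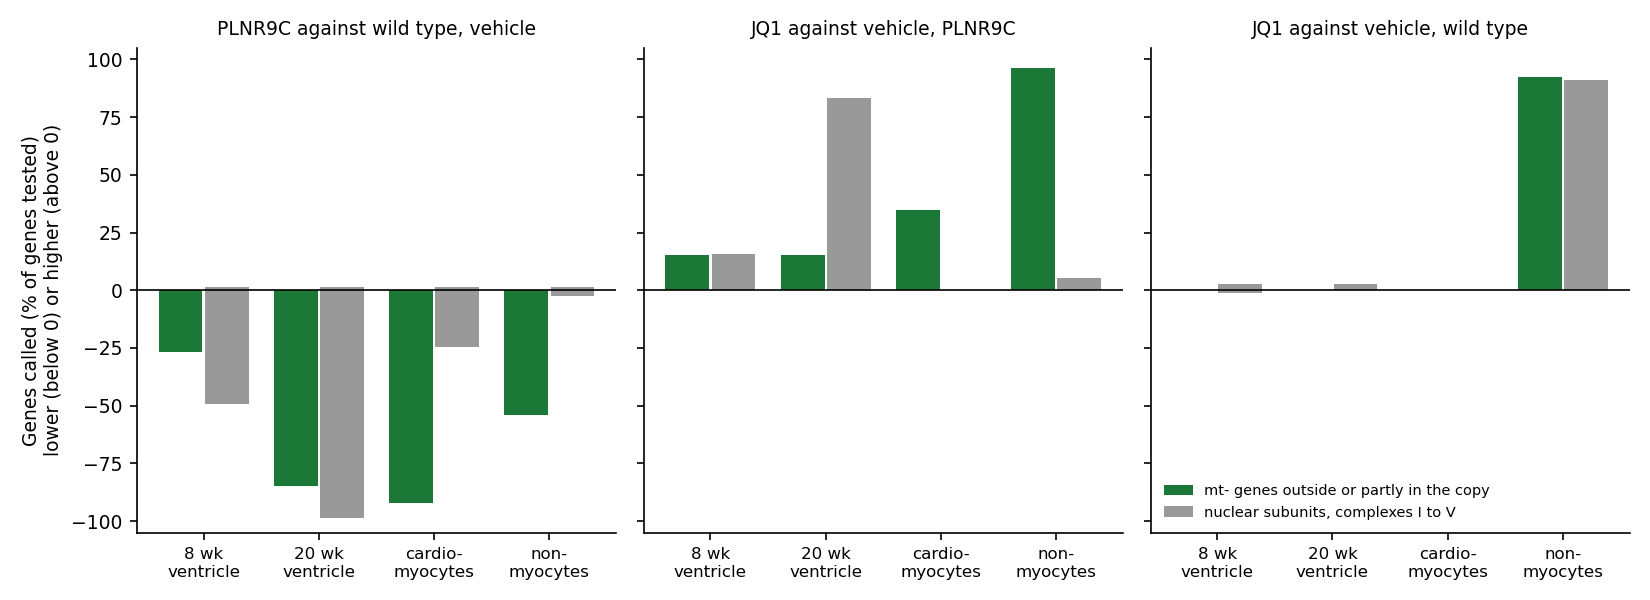
Percent of genes called higher (up) or lower (down) at an adjusted p under 0.05, for the 26 mitochondrial genes not wholly inside the copied stretch (green) and 77 nuclear genes of the respiratory complexes (grey), in 3 panels for the genotype and JQ1 comparisons and 4 sources each. In PLNR9C mice with JQ1, nuclear genes are the larger part at 20 weeks (64 of 77) and mitochondrial genes in both cell fractions (9 and 25 of 26). Only 7 of the 26 are messenger RNAs, which encode subunits.

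The nuclear machinery that transcribes mitochondrial DNA was measured in the same fits. For this list and those that follow, the part of the cell mixture was not tested either. Of 8 genes tested at 20 weeks 5 fell in PLNR9C and none rose, where 44.7% of all genes were called and 21.4% called lower. Polrmt, the mitochondrial RNA polymerase, fell by 0.59 (SE 0.08, adjusted p = 5.82e-06), Tfam, which packages the DNA and starts transcription, by 0.56 (SE 0.09, adjusted p = 9.82e-05), and Tfb2m, which opens the promoter, by 0.40 (adjusted p = 0.000835). Mterf2 (-0.72) and Mterf3 (-0.60) fell as well, and Tefm, the elongation factor, was not called (-0.06, adjusted p = 0.815). In cardiomyocytes, with 11.8% of all genes called lower, 4 of 7 fell: Tfam (-0.56, adjusted p = 0.00467), Mterf2 (-0.92), Tfb2m (-0.45, adjusted p = 0.0342) and Polrmt (-0.47, adjusted p = 0.0358).

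With JQ1 2 of the 8 rose in PLNR9C ventricles at 20 weeks and none fell, against 15.9% of all genes called higher. Polrmt (-0.04, adjusted p = 0.733), Tfam (0.16, adjusted p = 0.207) and Tfb2m (0.02, adjusted p = 0.879) did not pass the threshold, while Mterf3 (0.58) and Mterf4 rose. In PLNR9C cardiomyocytes 0 of 7 were called. Mterf4, which acts with a methyltransferase on the mitochondrial ribosome, rose at 20 weeks in PLNR9C (0.97, adjusted p = 6.22e-06) and in wild type (1.06, adjusted p = 2.79e-06). It also rose in non-myocytes of PLNR9C (0.59) and of wild type mice (1.36, adjusted p = 1.61e-05), and at 8 weeks (0.75 and 0.81). In wild type non-myocytes, where 27 members rose, Polrmt fell by 0.78 (adjusted p = 0.000101) and Tfam was not called (-0.25, adjusted p = 0.15).

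Of the genes for replication of the DNA, 4 of 6 fell in PLNR9C at 20 weeks, against 21.4% of all genes, among them the helicase Twnk (-0.61, adjusted p = 1.13e-05) and the polymerase Polg (-0.25, adjusted p = 0.00904). With JQ1 Polg rose in PLNR9C ventricles at 20 weeks (0.45, adjusted p = 0.000139), in PLNR9C cardiomyocytes (0.38, adjusted p = 0.0289) and in non-myocytes of PLNR9C (0.70) and wild type mice (0.62).

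Of 15 genes for stability and decay of the RNA, 10 fell in PLNR9C at 20 weeks, where 21.4% of all genes were called lower, and Rexo2, an RNA exonuclease, rose (0.41). Lrpprc, which with Slirp holds mitochondrial messenger RNA in a stable form, fell by 0.78 (adjusted p = 4.95e-08), and Slirp was not called (-0.10, adjusted p = 0.527). With JQ1 Lrpprc rose by 0.26 at 20 weeks (adjusted p = 0.00748) and was not called in PLNR9C cardiomyocytes (0.07, adjusted p = 0.789). Fastkd1, of a family that acts on mitochondrial RNA, fell with JQ1 in both genotypes and all 4 sources. In PLNR9C it fell by 0.70 at 8 weeks, by 0.42 at 20 weeks, by 0.75 in cardiomyocytes and by 1.77 in non-myocytes, and in wild type by 0.75, 0.64, 0.70 and 0.84.

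Lists for later steps were read against the same 21.4% of all genes called lower at 20 weeks. In PLNR9C 7 of 9 genes for modification and assembly of the ribosomal RNA fell and none rose, such as Trmt2b (-0.65), Nsun4 (-0.65) and Dap3 (-0.47), as did 13 of 17 aminoacyl-tRNA synthetases of the organelle, such as Yars2 (-0.78) and Cars2 (-0.71), and 5 of 12 genes for processing of the precursors, such as Trmt5 (-0.87) and Hsd17b10 (-0.78). In cardiomyocytes 3 of 9, 4 of 17 and 2 of 12 fell, against 11.8% of all genes. With JQ1 at 20 weeks Dap3, a protein of the small ribosomal subunit, rose in PLNR9C by 0.49 (adjusted p = 4.63e-05), and 4 of 9, 3 of 17 and 2 of 12 genes of these lists rose, the last 2 counts near the 15.9% of all genes called higher; 1 gene for processing, Trmt5, fell by 0.62.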

How the data were processed

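The labels' protocols give TRIzol for the total RNA and Nextera for the libraries, and name no selection or depletion step. STAR 2.4.1b and GRCm38 stand in the submitters' processing notes. No label or header names the counter, its annotation, its use of strand or its handling of reads with several matches. Per the file headers, the authors deposited raw read counts per gene and a normalized value, used here as RPKM since reads divided by it and by the library total gave 1 length per gene in all libraries; RPKM served only to compare genes. All 96 sample columns matched a title.

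Counts of all genes were fitted for each source (12 libraries) and, for comparisons between fractions or ages, for 24 libraries, with edgeR 4.0.16 in R 4.3.3 (filterByExpr, trimmed-mean scaling, robust quasi-likelihood fit). P-values were Benjamini-Hochberg adjusted over all genes tested, with a threshold of 0.05, and the SE was the log2 fold change divided by the root of F. In all 20 comparisons were made. The fit was tested on simulated counts. Alternatives used relative log expression scaling, no filter, DESeq2 1.42.0, scaling by nuclear genes, a replicate block, leaving out each library, and, added after seeing the data, leaving out PLNR9C JQ1 non-myocyte replicates 2 and 3 together. Copies in the nucleus were found with exact windows of 50 bases and blastn 2.17.0 against GENCODE M21 transcripts.

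The design text calls the 3 libraries of each group individual biological replicates. Deviations of same-numbered cardiomyocyte and non-myocyte pools of 1 condition correlated in 12 of 12 pairs (r of 0.19 to 0.40). The numbers in the titles were therefore used to pair these pools in the replicate block. The fits between fractions given in the results did not include this pairing. With the block 34, 0 and 8 members were called between fractions, against 34, 0 and 6 without it. No 2 replicates agreed within sampling noise (chi-square per degree of freedom at least 4.89).

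All mt- genes could be named; of each nuclear list, up to 4 called members with the smallest p, and always Polrmt, Tfam, Tfb2m, Tefm, Lrpprc, Slirp, Twnk and Polg. Rexo2, Atpif1 at 20 weeks and, beyond the 4, Mterf4 and Fastkd1 were named after their values were seen. Members and lists were chosen with earlier results of these data known.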

Additional observations from a re-analysis of the deposited data

Results flagged for a closer look

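The genotype effect differed between 20 and 8 weeks, in a test of that difference, for 22 members. Among the long transcripts the difference was -1.06 for mt-12SrRNA, -0.91 for mt-16SrRNA, -0.67 for mt-Nd1, -0.88 for mt-Nd2, -0.64 for mt-Co1, -0.69 for mt-Nd4, -0.80 for mt-Nd5 and -0.63 for mt-Cytb on the log2 scale. Cardiomyocyte markers moved with it, with 9 of 12 called lower in the same test; their part was not tested.

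The JQ1 effect in PLNR9C mice differed between cardiomyocytes and non-myocytes for 6 members, and mt-Nd6, at -1.47, was the messenger RNA among them. With JQ1 non-myocyte replicates 2 and 3 left out, none of the members was called in that test.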

How the results depend on the processing

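Refits were summed for 71 calls of single members by comparison, which are only a part of the calls given above. Their 845 refits kept the direction in all cases, and 746 also kept the adjusted p under 0.05. DESeq2 and scaling by nuclear genes kept all 71, and the other calls are not covered by these counts. Counts of members called moved by over 1.5 times as follows. With relative log expression scaling 2 members rose with JQ1 in PLNR9C ventricles at 20 weeks, against 4. With no filter 7 rose with JQ1 in PLNR9C cardiomyocytes, against 12, and 8 fell in PLNR9C non-myocytes, against 14. DESeq2 called 2 with JQ1 in wild type cardiomyocytes, against 0, and 19 for the JQ1 effect between fractions, against 6. Within a source the replicate numbers did not pair the libraries (3 to 6 of 18 pairs with r over 0.1); the replicate block gave 7 with JQ1 in PLNR9C cardiomyocytes and moved no other count by over 1.5 times. Leaving out PLNR9C JQ1 non-myocyte replicates 2 and 3 together gave 14 members with JQ1 in that fraction, against 30, and 0 for the JQ1 effect between fractions, with fewer samples. The other causes were not tested. Per 100 nuclear reads the share at 20 weeks differed by -7.06 between genotypes, against -5.55 as a percent of all reads, by the change of denominator.

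Leaving out 1 library gave 3 to 7 members lower by genotype at 8 weeks, 25 to 30 at 20 weeks, 5 to 9 in non-myocytes and 23 to 28 in cardiomyocytes. With JQ1 in PLNR9C it gave 1 to 17 at 8 weeks, 1 to 6 at 20 weeks, 23 to 30 in non-myocytes and 5 to 12 in cardiomyocytes, and in wild type non-myocytes 20 to 28. It gave 34 between fractions, 0 to 21 for the JQ1 effect and 0 for the genotype effect between fractions, 19 to 23 for genotype between ages, and 0 in the other comparisons. For the share of reads the only change of sign was for JQ1 in wild type ventricles at 8 weeks (-0.418 to 0.503 percentage points) and in PLNR9C ventricles at 20 weeks (-0.023 to 1.03). Depth limits the members inside the copied stretch and several transfer RNAs outside it, such as mt-tRNA-SerchrM+ and mt-tRNA-Phe, with as few as 6 and 8 reads in a library.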
